A study of Mus musculus with 416 samples.

Results

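The loci of 10 mouse genes that regulate or mark the trophectoderm, the outer epithelium of the blastocyst, were followed through S phase in single blastomeres of preimplantation embryos. The genes were Tead4, Tfap2c, Cdx2, Gata3, Eomes, Elf5, Id2, Krt8, Krt18 and Aqp3. Each gene was represented by the 50-kb bin that holds its midpoint in GRCm38, together with the bins within 0.5 Mb on either side, which gave windows of 21 bins (1.05 Mb). All 10 genes had a bin that could be used, out of 19410 protein-coding genes on the autosomes for which this was true. The midpoints of Krt8 and Krt18 lie in the same bin, so that the 10 genes stand for 9 bins, and every value given for 1 of these keratin genes is also that of the other.

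Embryos from the cross (C57BL/6J x CBA) x DBA/2J were used. As zygotes they had been injected, 17 to 18 h after hCG, with 20 µM of an siRNA against Rif1 (siRif1) or with 20 µM of a control siRNA (siControl, siCont below), and were grown on in culture to 4 cells, 8 cells or the morula. The tables held 51 siRif1 and 49 siCont cells of the 4-cell stage, 50 siRif1 and 60 siCont cells of the 8-cell stage, and 45 siRif1 and 44 siCont cells of the morula. These 299 cells were part of 416 labelled cells. Only DNA was measured, so the amount of Rif1 left after injection, the stage label and the expression of the genes could not be checked, and the labels do not say whether a morula cell lay inside or outside. No embryo of origin is named for any cell. Each group therefore counted as 1 sample, no p-value is given, and differences are described by their size.

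Trophectoderm fate is set up when outer cells of the morula polarise and Hippo signalling is turned off in them. YAP then enters the nucleus and binds TEAD4, and TEAD4 with TFAP2C drives Cdx2 and Gata3, which in turn act with Eomes and Elf5 to hold the trophoblast programme. RIF1 binds chromatin and brings protein phosphatase to replication origins, and is known for keeping late-replicating domains late in cultured cells. Gene-rich and active DNA tends to replicate early in S phase.

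A bin was scored as replicated or not replicated in each cell. The percent of measured cells of a group in the replicated state is called the replicated share here, and a locus that replicates early has a high one. Shares carry exact 95% Clopper-Pearson intervals, which cover counting error only. At the 10 loci between 43 and 60 cells were measured in each group. The cells of some groups were further through S phase than those of others, and shares were therefore centred, by subtracting the mean of the group over 46015 bins. That mean was 50.5% in siRif1 and 46.5% in siCont cells at the 4-cell stage, 43% in siRif1 and 49.2% in siCont cells at the 8-cell stage, and 49.98% in siRif1 and 49.4% in siCont cells in the morula. The shift of a locus, in percentage points, is its centred share in siRif1 cells less its centred share in siCont cells. Where it is below 0, relatively fewer siRif1 cells had replicated the locus. A shift of at least 20 points was used as the size to count.

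The loci that passed this size were Cdx2 and Id2, both in the morula. The 250 bases before their annotated starts are shown because these genes carry the largest differences among the 10. Cdx2 lies at chr5:147300900-147307249 and Id2 at chr12:25093799-25096092, both on the minus strand, and the sequences, from RefSeq (GRCm38.p6), cover chr5:147307250-147307499 and chr12:25096093-25096342. They are written 5′ to 3′ in the direction of transcription, with each CpG (the letters CG, which read the same on both strands) in capitals.
Cdx2: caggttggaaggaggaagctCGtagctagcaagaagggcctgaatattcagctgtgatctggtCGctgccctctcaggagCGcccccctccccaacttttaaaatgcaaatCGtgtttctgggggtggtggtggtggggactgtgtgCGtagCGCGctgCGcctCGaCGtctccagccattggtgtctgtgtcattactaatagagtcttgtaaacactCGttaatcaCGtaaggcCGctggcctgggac
Id2: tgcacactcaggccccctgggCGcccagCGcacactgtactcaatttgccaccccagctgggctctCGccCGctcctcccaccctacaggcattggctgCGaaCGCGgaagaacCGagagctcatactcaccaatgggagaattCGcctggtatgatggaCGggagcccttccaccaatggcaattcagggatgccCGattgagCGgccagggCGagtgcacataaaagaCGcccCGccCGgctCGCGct
The Cdx2 stretch held 13 CpGs and the Id2 stretch 18, and 67.9% and 77.8% of 31396 autosomal promoter stretches of the same length held fewer. At least 1 CpG was present in 92.4% of those stretches. Sequences were matched for 8 of the 10 genes, with 9 starts in all because Elf5 has 2. These held 2 to 19 CpGs with a median of 12, against a median of 6 over all stretches. The 31396 stretches belong to 25748 genes, more than the 20665 autosomal protein-coding genes, so this background is not the one used for the shifts.

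The positions of the remaining genes are those of RefSeq on GRCm38. The upstream factors are Tead4, at chr6:128227143-128300813, and Tfap2c, at chr2:172545678-172558622. Chromosome 2 also holds Gata3, at chr2:9857078-9887953, and Elf5, at chr2:103412098-103450989, and Eomes is at chr9:118478186-118486132. The epithelial genes are Krt8, at chr15:101996711-102004342, Krt18, at chr15:102028216-102032026, and Aqp3, at chr4:41092724-41098183. The bins hold whole genes or large parts of them with their exons, introns and flanks, so a value belongs to the locus and not to an element within it.

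At the 4-cell stage the loci went both ways. The shift was negative for 8 of 10 genes, against 59.6% of protein-coding genes, and none was at least 20 points lower, against 3.07%. The median was -10.3 points for the 10 genes, or -6.48 points with the keratin bin counted once, and -2.31 points for all genes. The bin of Krt8 and Krt18, whose products pair as the keratin filaments of the first epithelium, differed most: it was replicated in 19 of 51 siRif1 cells (37.3%), against 26 of 49 siCont cells (53.1%), a shift of -19.7 points. Tfap2c, which encodes the AP-2 gamma factor, was replicated in 13 of 51 siRif1 cells (25.5%, interval 14.3 to 39.6%), against 19 of 49 siCont cells (38.8%, interval 25.2 to 53.8%), a shift of -17.2 points. Among all bins Tfap2c stood at percentile 3.42 in siRif1 and at percentile 30 in siCont 4-cell embryos, which places it among the latest bins of those siRif1 cells. Aqp3, a channel for water and glycerol, was replicated in 68.6% of siRif1 and 79.6% of siCont cells (-14.9 points), and Elf5, an ETS factor of trophoblast stem cells, in 49% of siRif1 and 59.2% of siCont cells (-14.1 points).

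Cdx2, the homeobox factor required for trophectoderm, and Gata3, a zinc-finger factor downstream of TEAD4, were the exceptions at the 4-cell stage. Each was replicated in 36 of 51 siRif1 cells (70.6%), against 27 of 49 siCont cells (55.1%), which gave a shift of 11.6 points for both, and 92.7% of genes had a lower shift. The 2 loci are on different chromosomes and were often replicated in different cells: 24 siRif1 4-cell cells had both replicated, 12 had only Cdx2, 12 had only Gata3 and 3 had neither. Id2 encodes an inhibitor of basic helix-loop-helix factors and is an early marker of outer cells, and its bin was replicated in 62.7% of siRif1 and 65.3% of siCont cells (-6.48 points). Eomes, a T-box factor of trophoblast stem cells, was replicated in 52.9% of siRif1 and 51% of siCont cells (-1.99 points), and Tead4, the gene of the DNA-binding partner of YAP, in 60.8% of siRif1 and 57.1% of siCont cells (-0.27 points). For Eomes and Tead4 the raw share was slightly higher in siRif1 cells and the centred share slightly lower, which is within counting error either way.

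At the 8-cell stage every one of the 10 genes had a negative shift and none reached 20 points, though Gata3 turned positive with window means (0.022 points) and on the percentile scale (3.72). The background was 71.9% of protein-coding genes with a negative shift and 18.2% at least 20 points lower. The median was -13.5 points for the 10 and -7.49 points for all genes. Id2 was replicated in 50% of siRif1 and 73.3% of siCont cells, and Aqp3 in 62% of siRif1 and 85% of siCont cells. With shifts of -17.2 points for Id2 and -16.8 points for Aqp3, these were the lowest of the 10 at this stage, but 24.2% and 24.8% of genes were lower still. Eomes was replicated in 40% of siRif1 and 61.7% of siCont cells, a shift of -15.5 points. Krt8 and Krt18 were replicated in 48% of siRif1 and 68.3% of siCont cells (-14.2 points). Elf5 was replicated in 56% of siRif1 and 75% of siCont cells (-12.8 points). Bins were also ranked into 5 equal classes by their centred share in siCont cells of the other stages. The median shift of the genes in the same class was -13.5 points for Id2, Aqp3 and Elf5, and -8.20 points for Eomes and the keratins, so that Elf5 was the only one of these loci not below its class.

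The upstream factors Tfap2c and Tead4, and Cdx2 and Gata3 below them, had smaller shifts at the 8-cell stage. All 10 shifts of this stage lay within counting error, which had a half-width of 17.1 to 19.3 points. The intervals of siRif1 and siCont cells overlapped at every locus, so the loci cannot be ranked by their shifts here. Tfap2c was replicated in 34% of siRif1 and 50% of siCont cells (-9.82 points), and Tead4 in 48% of siRif1 and 63.3% of siCont cells (-9.15 points). Cdx2 was replicated in 52% of siRif1 and 65% of siCont cells (-6.82 points), and Gata3 in 64% of siRif1 and 73.3% of siCont cells (-3.15 points). The median shift of the class was -13.5 points for Cdx2 and -8.20 points for Gata3, Tfap2c and Tead4. Cdx2 and Gata3 thus lay above their class, and Tfap2c and Tead4 below it. Of the 10 genes, 7 lay below their class at this stage. Gata3 was the locus with the highest share of the 10 in siRif1 cells of this stage, and Aqp3 was that locus in siCont cells. The siRif1 8-cell cells did not go as far through S phase: their percent of bins replicated had a median of 43.2% and a maximum of 66.3%, against 48.3% and 97.3% in siCont cells. In 49 pairs of cells matched within 5 points, all 10 shifts were negative, with a median of -14.7 points and Aqp3 at -20.8 points. Without centring, 5 of the 10 genes were at least 20 points lower. These raw differences include that of the group means (43% in siRif1 and 49.2% in siCont cells). The share of all genes past 20 points was not counted without centring. Averaged over the 21-bin windows, the median centred shift was -6.61 points.

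In the morula, Id2 differed most between the groups. The Id2 bin was replicated in 22 of 45 siRif1 cells (48.9%, interval 33.7 to 64.2%), against 36 of 44 siCont cells (81.8%, interval 67.3 to 91.8%). The 2 intervals did not overlap, and the shift was -33.5 points. Of all protein-coding genes, 0.335% had a lower shift at this stage. Cdx2 was replicated in 32 of 45 siRif1 morula cells (71.1%, interval 55.7 to 83.6%), against 40 of 44 siCont morula cells (90.9%, interval 78.3 to 97.5%). Its shift was -20.4 points with intervals that overlapped, and 7.87% of genes had a lower shift. Among the bins of its group, Cdx2 stood at percentile 88.0 in siRif1 morulae and at percentile 99.3 in siCont morulae, where it was the highest of the 10. Id2 stood at percentile 46.4 in siRif1 morulae, where it was the lowest of the 10, and at percentile 91.9 in siCont morulae.

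The other loci lay close together in the morula. Tead4 was replicated in 60% of siRif1 and 69.8% of siCont cells, a shift of -10.4 points. Tfap2c was replicated in 68.9% of siRif1 and 72.7% of siCont cells (-4.42 points). Gata3 was replicated in 71.1% of siRif1 and 75% of siCont cells (-4.48 points). The intervals of siRif1 and siCont cells overlapped at these 3 loci and at the 4 that follow. Eomes was replicated in 66.7% of siRif1 and 72.7% of siCont cells (-6.65 points). Elf5 was replicated in 75.6% of siRif1 and 79.5% of siCont cells (-4.58 points). The keratin bin was replicated in 68.9% of siRif1 and 72.7% of siCont cells (-4.42 points). Aqp3 was replicated in 82.2% of siRif1 and 86.4% of siCont cells (-4.73 points).

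All 10 genes had a negative shift in the morula, where 74.8% of protein-coding genes did. At least 20 points lower were 2 of 10, against 9.97% of genes. The median shift of the 10 was -4.65 points and that of all genes -8.04 points. Of the 10 genes, 3 lay below the median shift of the genes in their class of siCont share. The direction at 7 of the 10 depended on the scale: ranked among the bins of its group, a locus was lower in siRif1 morulae for Id2 (-45.5 percentile points), Cdx2 (-11.3) and Tead4 (-3.06) and higher for the others, with a median of 5.10. The spread of shares over bins was smaller in siRif1 than in siCont morulae, with an SD of 17.3 points in siRif1 and 25.8 points in siCont cells. The call for Cdx2 did not hold when morula cells were thinned to 40 pairs of siRif1 and siCont cells that differed by no more than 5 points in percent replicated, where its shift was -14.8 points and that of Id2 was -37.3 points.

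**Figure D1:**
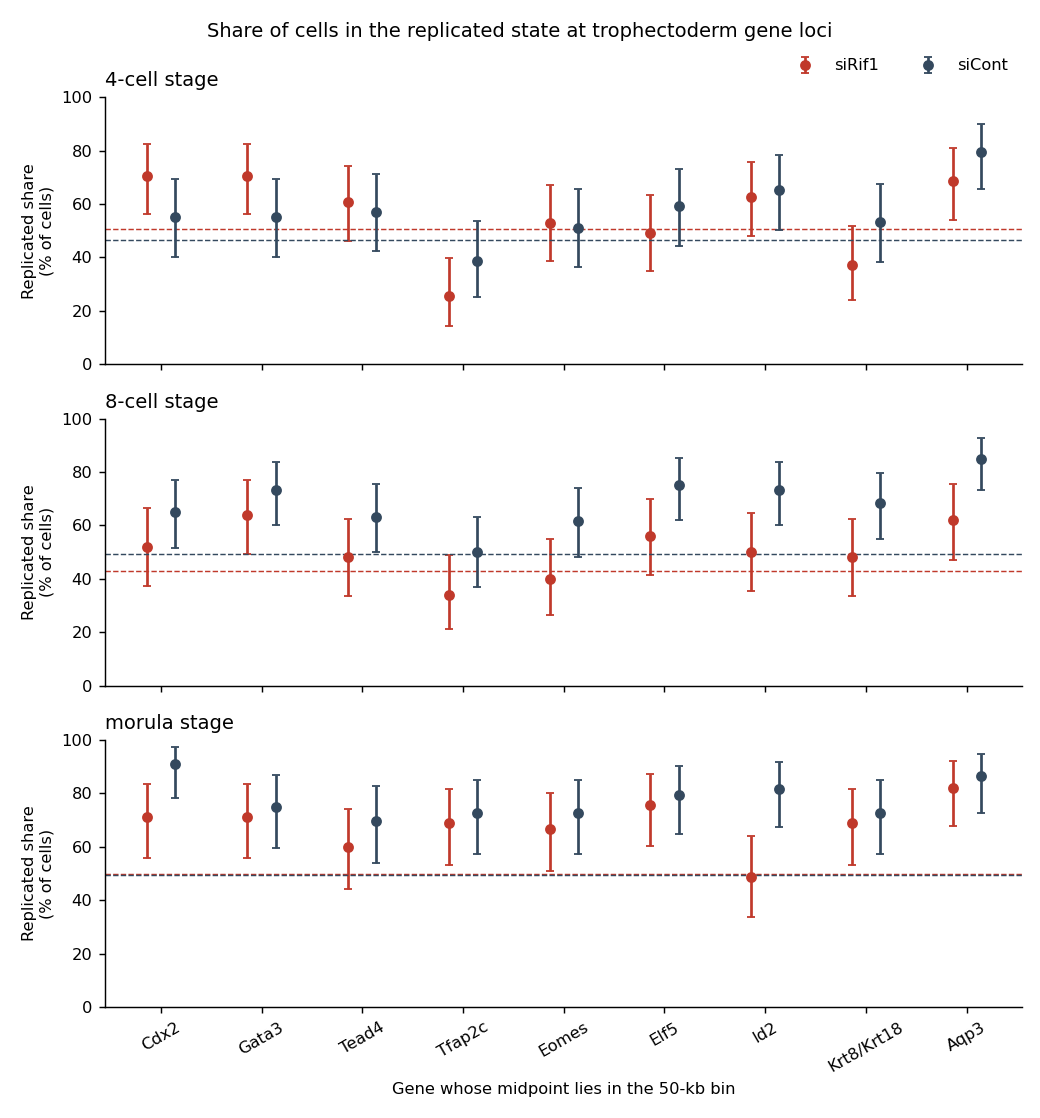
Replicated share (percent of measured cells) of each locus at the 4-cell, 8-cell and morula stages, in siRif1 cells (red) and siCont cells (dark blue), with exact 95% intervals for counting error. Dashed lines give the mean of each group over all used bins. In the morula the Id2 point is at 48.9% in siRif1 cells, against 81.8% in siCont cells, and the other loci are at 60% or more in both groups.

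**Figure D2:**
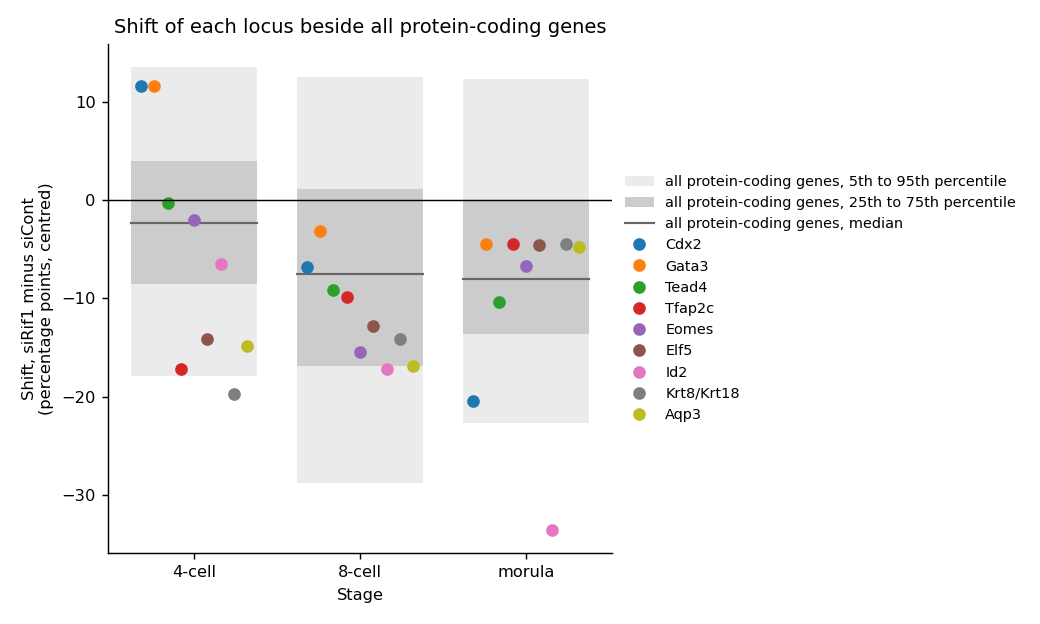
Shift of each locus (centred replicated share in siRif1 minus siCont cells, percentage points) at each stage, as coloured points, over the 5th to 95th and 25th to 75th percentiles and the median of all 19410 protein-coding genes (grey). Cdx2 and Gata3 lie at 11.6 points at the 4-cell stage, all points are below 0 at the 8-cell stage, and Id2 lies at -33.5 points in the morula, below the grey range.

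The order of the loci was loose within each group. In siRif1 4-cell embryos, shares ran between 25.5% for Tfap2c and 70.6% for Cdx2 and Gata3, and 8 of the 36 pairs of distinct bins had intervals that did not overlap. In siCont 4-cell embryos they ran between 38.8% for Tfap2c and 79.6% for Aqp3, with 2 such pairs. At the 8-cell stage the ranges were 34 to 64% in siRif1 and 50 to 85% in siCont cells, with 1 such pair in each group. The lowest was Tfap2c in all 4 of these groups. In the morula the ranges were 48.9 to 82.2% in siRif1 cells, with 1 such pair, and 69.8 to 90.9% in siCont cells, with none, so neighbours in the order cannot be told apart there. Most of the loci lay above their group mean, as most protein-coding genes did. For genes this was largely set in advance, since the state that gene bins held more of was taken as replicated. Of the 9 bins, 6 did so at the 4-cell stage in siRif1 cells, where 63.5% of genes did, and 8 did so in siCont cells, where 68.4% did. At the 8-cell stage the counts were 7 in siRif1 cells (60.5% of genes) and 9 in siCont cells (77.3%), and in the morula 8 in siRif1 cells (75.3%) and 9 in siCont cells (81.4%). With 9 bins, shares such as 6 of 9 are near that of all genes.

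In the surrounding 1.05 Mb, the morula difference had the same direction throughout for Cdx2 and Id2 but was smaller on average, and the Cdx2 mean no longer reached 20 points. All 21 bins of the Cdx2 window had a negative shift in the morula, between -24.8 and -13.4 points with a mean of -18.4. All 21 bins of the Id2 window did too, between -33.5 and -6.60 points with a mean of -23.0. The midpoint bin of Id2 differed from the outermost 3 bins of each side by -1.11 points in siRif1 morulae and by 15.5 points in siCont morulae, so that the local peak over Id2 in siCont cells was not seen in siRif1 cells. Cdx2 was a broad high region in both groups, with its midpoint 6.30 points above the outermost bins in siRif1 morulae and 11.7 points above them in siCont morulae. At the 4-cell stage every bin of the Cdx2 window had a positive shift, with a mean of 8.51 points. At the 8-cell stage the Aqp3 window had a mean shift of -15.2 points with all 21 bins negative, and the Id2 window -12.2 points with 19 of 21 negative. The windows of Tfap2c, Elf5 and Aqp3 had mean shifts of -0.476, -0.517 and -1.13 points in the morula. At the 4-cell stage they had -12.6, -9.98 and -11.5 points, each with all 21 bins negative. Neighbouring bins are not separate measurements, because runs of 1 state in a cell were never shorter than 5 bins (250 kb).

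**Figure D3:**
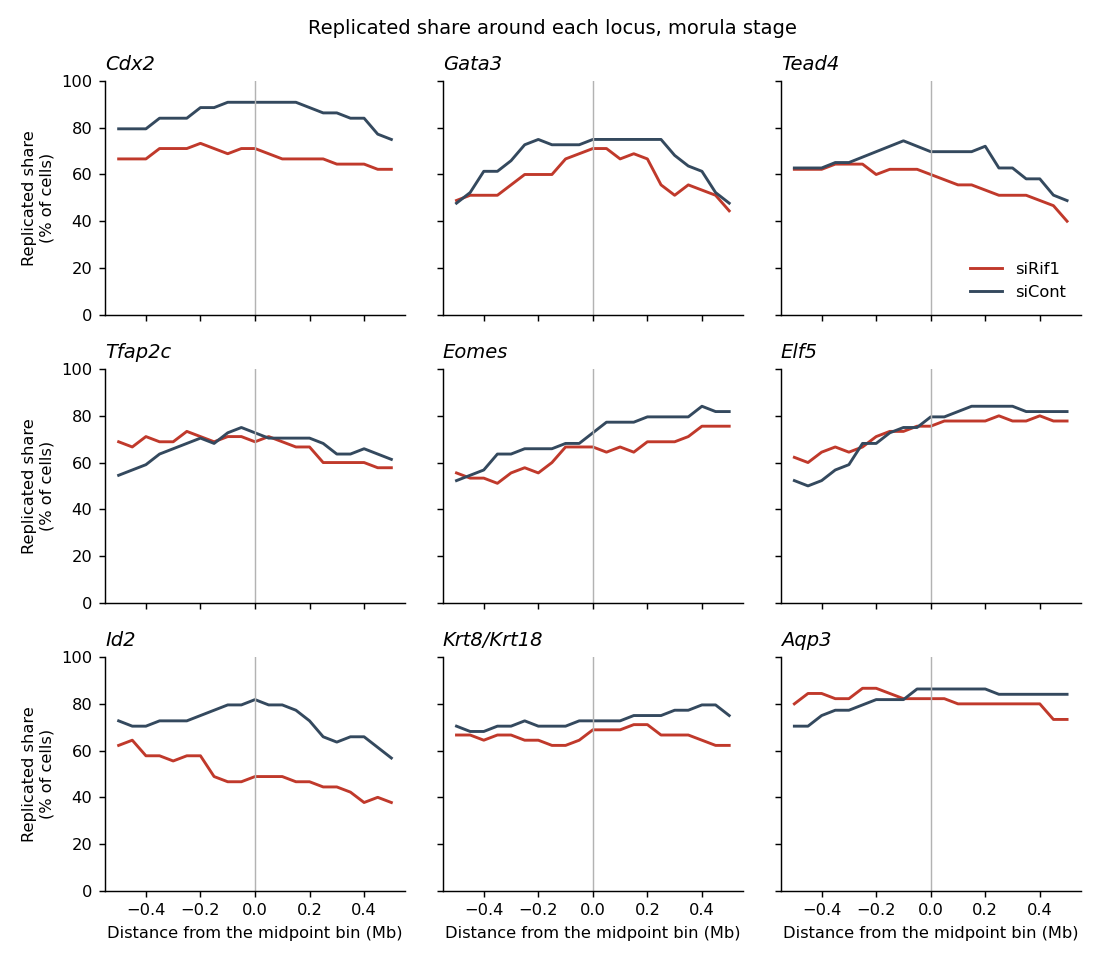
Replicated share (percent of measured cells) in morulae along the 1.05-Mb window of each locus, in siRif1 cells (red) and siCont cells (dark blue), against the distance from the midpoint bin (vertical line), in Mb along the chromosome. The siRif1 line stays under the siCont line over the whole Cdx2 and Id2 windows, and the lines cross or touch at Gata3, Tfap2c, Eomes, Elf5 and Aqp3.

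The windows differed in gene content and position. They held the midpoints of 6 (Gata3) to 42 (Krt8 and Krt18) protein-coding genes, with a median of 13, against a median of 17 over the windows of all genes. Id2 had 7 in its window and Cdx2 13. Cdx2, Tfap2c, Eomes and Krt8 lay far along their chromosomes, at 97.0, 94.7, 95.1 and 98% of the length. Gata3, with 6 genes, and the keratins, with 42, had morula shifts of -4.48 and -4.42 points, and Id2, with 7, had -33.5 points. A relation of gene content to the shift was not tested.

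With development, the loci took up a larger centred share in siCont cells. Between the 4-cell and 8-cell stages all 10 genes had a positive change in siCont cells, against 71.6% of protein-coding genes, with a median of 8.28 points for the 10 and 5.20 points for all genes. No locus was at least 20 points higher, against 4.21% of genes. Between the 8-cell stage and the morula all 10 were again positive, against 70.5% of genes, with a median of 5.30 points for the 10 and 5.27 points for all genes. Cdx2 (25.7 points) and Tfap2c (22.5 points) were at least 20 points higher at this step, which makes 2 of 10 against 5.81% of genes. Both steps use the same siCont 8-cell cells. Over the 2 steps together, Cdx2 gained 33 points and Tfap2c 31.1 points in siCont cells, whereas Aqp3, which began as the highest of the 10, gained 3.92 points. Ranked among the bins of the group, siCont loci went both ways. Between the 8-cell stage and the morula, Gata3 went from percentile 88.2 to 79.8 and the keratin bin from 79.7 to 75.7. Elf5, Aqp3 and Tead4 also went down, and Cdx2, Tfap2c, Eomes and Id2 went up. Between the 4-cell and 8-cell stages, Tead4, Id2 and Aqp3 went down and the others up. The SD of siCont shares over bins was 13.7, 19.8 and 25.8 points at the 4-cell, 8-cell and morula stages.

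In siRif1 cells the changes in centred share were more mixed. Between the 4-cell and 8-cell stages 6 of 10 genes had a positive change, against 48.2% of protein-coding genes, and none was at least 20 points higher, against 2.15%. The median was 0.829 points for the 10 and -1.11 points for all genes. The keratin bin (18.2 points), Tfap2c (15.9 points) and Elf5 (14.4 points) were highest and Cdx2 (-11.2 points) was lowest, with Eomes at -5.50, Tead4 at -5.35 and Id2 at -5.31 points also negative. Between the 8-cell stage and the morula 9 of 10 genes had a positive change, against 65.5% of genes, with a median of 12.9 points for the 10 and 5.93 points for all genes. Tfap2c (27.9 points) alone was at least 20 points higher, against 16.1% of genes, with Eomes at 19.7 points and Id2 at -8.07 points. Between the 4-cell stage and the morula, the change for Tfap2c was 43.9 points in siRif1 and 31.1 points in siCont cells. For Cdx2 it was 1.00 point in siRif1 and 33 points in siCont cells, for Gata3 1.00 point in siRif1 and 17.1 points in siCont cells, and for Tead4 -0.303 points in siRif1 and 9.78 points in siCont cells. Id2 had -13.4 points in siRif1 and 13.7 points in siCont cells. Whether these changes differ between siRif1 and siCont cells could not be tested with 1 sample a group.

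The state of each locus was then set against how far its cell had gone through S phase, taken as the percent of bins replicated on the other chromosomes of that cell. Over all 9 bins, the share of replicated states was higher in cells further through S phase in all 6 groups. In cells under 40% replicated, the loci were replicated in 39.3% of cases in siRif1 and 34.2% in siCont 4-cell embryos, in 34.4% in siRif1 and 50.3% in siCont 8-cell embryos, and in 55.6% in siRif1 and 66% in siCont morulae. In cells over 60% replicated, they were replicated in 71.8% of cases in siRif1 and 83.2% in siCont 4-cell embryos, in 72% in siRif1 and 88% in siCont 8-cell embryos, and in 77.1% in siRif1 and 88.2% in siCont morulae. The siRif1 value was the lower in every class but the first of the 4-cell stage. In cells between 40 and 60% replicated, the mean number of the 9 bins replicated was 5.13 in 24 siRif1 and 5.55 in 11 siCont 4-cell cells, 5.05 in 21 siRif1 and 6.40 in 25 siCont 8-cell cells, and 6.46 in 13 siRif1 and 7.08 in 24 siCont morula cells. All 9 bins were replicated in 1 of 51 siRif1 and 6 of 49 siCont cells at the 4-cell stage. The counts were 2 of 50 siRif1 and 13 of 60 siCont 8-cell cells, and 3 of 45 siRif1 and 8 of 43 siCont morula cells with all 9 measured. These counts take in cells at every point of S phase. Over 80% replicated were 1 siRif1 and 4 siCont 4-cell cells, 0 and 3 8-cell cells, and 2 and 2 morula cells. No such values were computed for other genes in the same cells. Most protein-coding genes also had a negative shift (59.6, 71.9 and 74.8% by stage).

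In the morula the Id2 share was lower in siRif1 cells in each part of S phase. Id2 was replicated in 4 of 16 siRif1 and 7 of 9 siCont cells under 40% replicated, in 7 of 13 siRif1 and 22 of 26 siCont cells between 40 and 60%, and in 11 of 16 siRif1 and 7 of 9 siCont cells over 60%. The gap was thus widest in the cells that had gone least far. At the 8-cell stage the order was the other way: Id2 was replicated in 9 of 20 siRif1 and 9 of 19 siCont cells under 40% replicated, and in 4 of 8 siRif1 and 15 of 16 siCont cells over 60%. Each class holds few cells and none of these gaps was tested.

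Cdx2 in siRif1 cells followed S phase progress only loosely in the morula and at the 4-cell stage. In the morula it was replicated in 11 of 16 siRif1 and 9 of 10 siCont cells under 40% replicated, in 11 of 13 siRif1 and 21 of 24 siCont cells between 40 and 60%, and in 10 of 16 siRif1 and 10 of 10 siCont cells over 60%. So 6 siRif1 morula cells that were over 60% replicated still had Cdx2 unreplicated, and none of the 10 such siCont cells did. At the 4-cell stage Cdx2 was replicated in 10 of 15 siRif1 and 8 of 21 siCont cells under 40%, in 19 of 24 siRif1 and 6 of 10 siCont cells between 40 and 60%, and in 7 of 12 siRif1 and 13 of 18 siCont cells over 60%. The higher Cdx2 share of siRif1 4-cell embryos thus came with the cells up to 60% replicated. Tfap2c at that stage was replicated in 4 of 15 siRif1 and 3 of 21 siCont cells under 40%, in 4 of 24 siRif1 and 5 of 11 siCont cells between 40 and 60%, and in 5 of 12 siRif1 and 11 of 17 siCont cells over 60%.

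**Figure D4:**
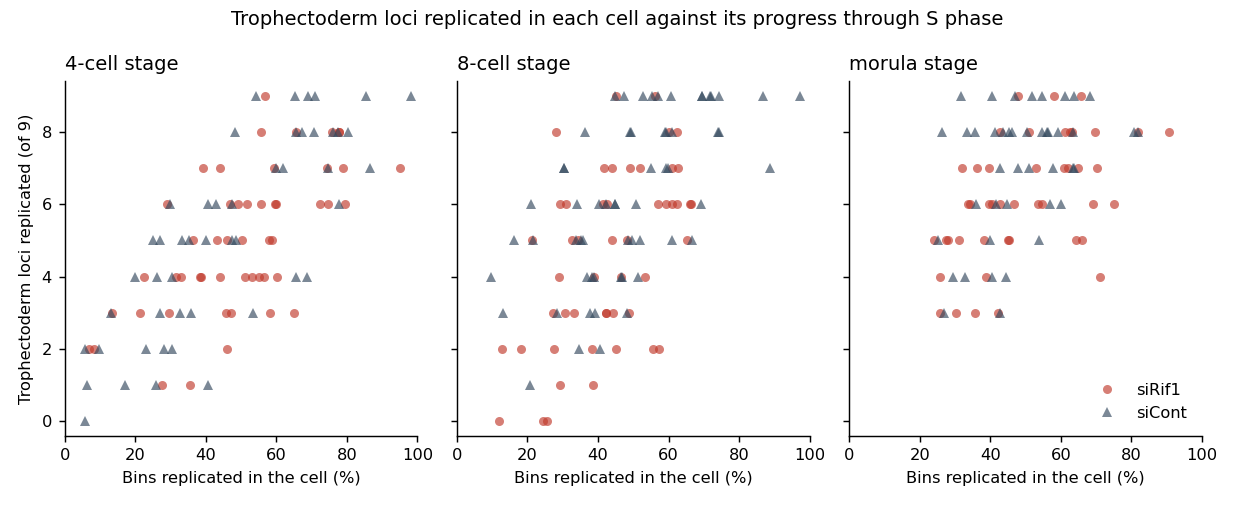
Number of the 9 bins replicated in each cell against the percent of bins replicated in that cell, at the 4-cell, 8-cell and morula stages, with siRif1 cells as red circles and siCont cells as dark blue triangles. All 9 bins were replicated in 3 siRif1 and 8 siCont morula cells and in 2 siRif1 and 13 siCont 8-cell cells, and no siRif1 8-cell cell lies beyond 66.3%.

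The point in S phase at which a locus switches was estimated as the percent of bins replicated, on the other chromosomes, that best separates cells with and without the locus replicated. The estimate for the keratin bin at the 4-cell stage was 74.8% in siRif1 and 40.6% in siCont cells, with 14 of 51 siRif1 and 16 of 49 siCont cells on the wrong side. That for Tfap2c in siRif1 4-cell embryos lay beyond all but 1 cell and is not read. In the morula the estimate for Tfap2c was 32.8% in siRif1 and 30.4% in siCont cells. The median over the 9 bins was 45.9% in siRif1 and 33.8% in siCont cells at the 4-cell stage, 40.5% in siRif1 and 34.2% in siCont cells at the 8-cell stage, and 31.2% in siRif1 and 12.8% in siCont morulae. For 5 of the 9 bins in siCont morulae, Id2 and Cdx2 among them, the estimate lay below every cell, which makes that median a bound set by the cells sampled. The Id2 estimate was 46% in siRif1 morulae. These points separate the cells poorly, since 9.09 to 38% of cells lay on the wrong side.

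Pairs of loci showed how often 2 trophectoderm genes were in the same state in a cell. In the morula Cdx2 and Id2 were both replicated in 16 of 45 siRif1 cells, with 16 having only Cdx2, 6 only Id2 and 7 neither. In siCont morulae both were replicated in 33 of 44 cells, with 7 having only Cdx2, 3 only Id2 and 1 neither. Cdx2 without its regulator Tead4 was replicated in 14 of 45 siRif1 and 10 of 43 siCont morula cells, and Tead4 without Cdx2 in 9 of 45 siRif1 and 1 of 43 siCont cells. For Cdx2 and Gata3, the locus of Gata3 alone was replicated in 12 of 45 siRif1 and 2 of 44 siCont morula cells. At the 4-cell stage, Tfap2c without Gata3 was replicated in 0 of 51 siRif1 and 5 of 49 siCont cells. In these 3 morula pairs, which all include Cdx2, siRif1 morulae held more cells with 1 of the pair replicated. The shares of the single loci were lower in siRif1 morulae, which alone changes such counts. Counts expected from those shares were not computed, so the pairs do not show whether 2 loci replicate together. The pairs named are some of the 36 pairs of distinct bins in each group. Pairs without Cdx2 varied. Gata3 without Elf5 was replicated in 5 siRif1 and 6 siCont morula cells, and Elf5 without Gata3 in 7 siRif1 and 8 siCont cells. Aqp3 without Id2 was replicated in 20 of 45 siRif1 and 5 of 44 siCont morula cells, and Id2 without Aqp3 in 5 siRif1 and 3 siCont cells.

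For each locus, the protein-coding gene on another chromosome with the most similar centred shares over the 6 groups was found by the root mean square difference. Id2 was closest to Alppl2, with a difference of 2.06 points, and Cdx2 to Gm30302, with 3.17 points. Eomes had the closest match (Ache, 0.928 points) and 538 genes within 5 points, so its profile was a common one. Tfap2c had the fewest similar genes of the 10, with 12 within 5 points, the closest being Vipr1 at 3.95 points. The remaining matches were Wasf1 for Gata3 (1.86 points), Abhd18 for Tead4 (2.03 points), Samd15 for Elf5 (1.78 points), Adgrb2 for the keratin bin (3.73 points) and Heg1 for Aqp3 (2.47 points). Id2 and Cdx2 had 99 and 44 genes within 5 points.

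Other genes of the trophectoderm pathway were listed to set the 10 loci in context, and their counts are read against all protein-coding genes, of which 59.6, 71.9 and 74.8% had a negative shift and 3.07, 18.2 and 9.97% were at least 20 points lower at the 4-cell, 8-cell and morula stages. Among 17 genes of the Hippo and YAP pathway, the shift was negative for 11 at the 4-cell stage, 14 at the 8-cell stage and 16 in the morula, with medians of -5.92, -7.82 and -13.3 points. At least 20 points lower were 3 at the 8-cell stage (Tead2, Tead3 and Nf2) and 2 in the morula (Amotl2 and Mob1a). All of these but Nf2 are named for their values, and both counts are near the shares of all genes. Yap1, the co-activator, had shifts of 4.29 points at the 4-cell stage, -4.82 points at the 8-cell stage and -8.82 points in the morula. Lats2, a kinase that keeps YAP out of the nucleus, had 5.21, -13.2 and -13.7 points at these stages. Nf2, an upstream activator of that kinase, had -15.5, -20.01 and -6.90 points.

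Among 14 other transcription factors of the trophectoderm, the shift was negative for 8, 11 and 9 at the 4-cell, 8-cell and morula stages, with medians of -0.894, -8.82 and -8.97 points. Of all genes, 59.6, 71.9 and 74.8% had a negative shift, so the 4-cell and morula counts are near or below the shares of all genes. At least 20 points lower were Arid3a at the 4-cell stage, Arid3a and Sox15 at the 8-cell stage, and Grhl2 and Rbpj in the morula, against 3.07, 18.2 and 9.97% of all genes. Msx2 was at least 20 points higher at the 4-cell stage, and all of these are named for their values. The share of all genes at least 20 points higher was not counted, and their 95th percentile at the 4-cell stage was 13.5 points. Gata2, a relative of Gata3, had shifts of 5.45, -13.8 and -17.5 points, and Klf5, a factor of early trophectoderm, had 5.45, -1.15 and -9.02 points. Hand1, a factor of trophoblast giant cells, had -13.3, -15.2 and -13.5 points.

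For the epithelium, 19 of 20 listed genes were measured, Ezr being without a used bin. The shift was negative for 8, 15 and 12 of them at the 4-cell, 8-cell and morula stages, with medians of 3.89, -7.49 and -6.50 points. The 4-cell and morula counts are below the shares of all genes, which were 59.6, 71.9 and 74.8% at these 3 stages. Krt19, another keratin of the trophectoderm, was replicated in 11 of 49 siRif1 and 34 of 60 siCont cells at the 8-cell stage, a shift of -28 points. Cldn6 and Cldn7 were the other 2 genes at least 20 points lower at that stage (18.2% of all genes), and Cubn was at least 20 points higher. Cldn4, Aqp8 and Slc9a3 were at least 20 points lower in the morula (9.97% of all genes), and all of these are named for their values. The 95th percentile of all genes at the 8-cell stage was 12.5 points. Cdh1, the cadherin of cell adhesion, had 3.09, -13.5 and -9.27 points, and Atp1b1, a subunit of the sodium pump that helps fill the blastocoel, had 7.89, -2.82 and 2.34 points.

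Genes of the opposite fate were listed as well. Among 15 pluripotency factors the shift was negative for 11, 12 and 13 at the 4-cell, 8-cell and morula stages, with medians of -4.52, -4.82 and -9.12 points. At least 20 points lower were Klf2 at the 4-cell stage, Pou5f1 at the 8-cell stage, and Sall4 and Dppa2 in the morula, of which the others than Pou5f1 are named for their values. Of all genes, 59.6, 71.9 and 74.8% had a negative shift and 3.07, 18.2 and 9.97% were at least 20 points lower at these stages. The single pluripotency gene past 20 points at the 8-cell stage is below the share of all genes there. Pou5f1 was replicated in 18 of 50 siRif1 and 41 of 60 siCont cells at the 8-cell stage, a shift of -26.2 points, which was lower than any of the 10 trophectoderm loci at that stage. Nanog had -6.48, -13.5 and -8.13 points, and Sox2 had -0.27, -4.82 and 4.87 points. In the morula the median of the 10 trophectoderm loci (-4.65 points) was nearer 0 than that of these factors and that of all genes (-8.04 points), while Id2 (-33.5 points) was lower than any of the 15. No difference between the lists was tested.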

How the data were processed

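Replication state was measured by whole-genome amplification and sequencing of single blastomeres. The values deposited by the authors are a state of 0 or 1 per 50-kb bin and cell, taken here as a fraction that is 0 or 1, or NA. The genome build GRCm38 and the tools R 4.2.3, bedtools, Picard, SAMtools and Bowtie2 2.5.1 are named, without roles, in the submitters' processing notes. The sources used here do not give how reads became states or how cells were chosen, and read depth per cell is unknown. The state 1 was taken as replicated, since bins with gene midpoints held more of it than other bins in all 6 groups. Only chromosomes 1 to 19 were analysed.

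Gene positions came from a RefSeq table of GRCm38.p6. A bin was used if each group had 10 or more measured cells there, which kept 46015 of 49264 bins, and 19410 of 20665 genes had their midpoint in such a bin. Shares, centring, shifts, exact intervals and switch points were computed in Python 3.11.15 with numpy 2.4.6, pandas 2.3.3 and scipy 1.17.1, drawn with matplotlib 3.10.9 and tested on simulated data. Groups came from the titles of the cells and counted as 1 sample each, so no test was run.

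The 10 genes, the pathway lists and the size of 20 points were chosen with earlier results of these data known. All 10 genes are named in every comparison, with 3 genes fixed for each list, the closest gene to each locus, and genes of a list past 20 points, which were chosen after their values were seen. Alternatives were the window or gene body, other centrings, and cells between 20 and 80% replicated or in matched pairs.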

Additional observations from a re-analysis of the deposited data

Results flagged for a closer look

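The shift of Cdx2 had opposite directions at different stages. It was 11.6 points at the 4-cell stage, where all 21 bins of its window were positive, and -20.4 points in the morula, where all 21 were negative. Of 8 other settings, 2 repeat the same values for Cdx2 by construction (the gene body, which is 1 bin, and the higher minimum of cells), and the sign was the same in the other 6, with 8.51 to 20.1 at the 4-cell stage and -20.3 to -11.3 in the morula. Gata3 also changed direction, with 11.6 points at the 4-cell stage and -4.48 points in the morula, though 8.17 on the percentile scale. Counting error had a half-width of 19.6 points for the 4-cell shifts of Cdx2 and Gata3, and of 19.5 points for Gata3 in the morula. Those shifts therefore lay within counting error. The other settings reuse the same cells. The difference between the stages was not tested, since each group is 1 sample.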

How the results depend on the processing

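Of 240 shifts recomputed for the 10 genes under 8 settings, 238 moved by less than their counting error and 2 moved further, both being the keratin bin at the 4-cell stage on the percentile scale (-51.7). Many of the 240 could not move, since the minimum of 20 cells changed no bin and several gene bodies fill 1 bin. Krt18 mostly repeats Krt8. Moves on the percentile scale were set against counting error in share points. The 238 are thus not separate checks. On that scale 4 genes were at least 20 lower at the 4-cell stage, 2 at the 8-cell stage and 1 in the morula, and in the morula 3 were negative with a median of 5.10, a turn of direction. With raw shares 5 genes were at least 20 points lower at the 8-cell stage and 1 in the morula. Gata3 at the 8-cell stage was 3.72 on the percentile scale and 0.022 points with window means, against -3.15 points. Over gene bodies the 4-cell count was 1, and with window means the 8-cell median was -6.61 points and the morula count 1. Matched pairs of cells gave counts of 1 at the 8-cell stage and 1 in the morula, and cells between 20 and 80% replicated gave 1 in the morula. The cause of these changes was not tested. Shares of all genes past 20 points were counted on the main scale only, so the counts under other settings have no background beside them. Id2 in the morula lay between -45.5 and -23.0 in all settings. A minimum of 20 measured cells left the same 46015 bins. No paired analysis was possible because the numbers in the labels count single cells and each group is 1 sample with no test. With 43 to 60 cells at each locus, counting error alone gives a difference of 2 shares a 95% half-width of 16.4 to 20.8 points, so smaller shifts were not detectable at this number of cells.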
